A study of Macaca fascicularis with 6 samples.

Results

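Proliferating T and NK cells were studied in the lungs of cynomolgus monkeys with and without a model of allergic asthma. The cells were chosen by their transcripts: a cell needed at least 2 of the 6 cell cycle genes MKI67, TOP2A, UBE2C, TYMS, CENPF and RRM2, with MKI67 or TOP2A among them, at least 2 of the 7 lymphocyte genes CD3D, CD3E, CD3G, TRAC, NKG7, KLRD1 and CD7, and no UMI of C1QA, MS4A1 or CSF3R. By this rule 649 of the 25388 cells that passed quality control were proliferating T and NK cells, and 9642 cells that passed the same lymphocyte gate were the other T and NK cells. The 6 monkeys were male and 3 to 5 years old, and each gave 1 droplet library of dissociated lung. In the asthma group (replicates 8, 10 and 11) monkeys were sensitized under the skin with antigen of the roundworm Ascaris suum mixed with adjuvant and then received A. suum through the nose, while the control group (replicates 1, 2 and 3) received saline. No cells were sorted, so the cells are those that survived dissociation of lung and removal of dead cells. Each captured RNA molecule carried a unique molecular identifier (UMI) and was counted once.

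T cells and natural killer (NK) cells are lymphocytes that divide after they meet antigen or cytokines such as those of the IL-2 family. During S phase the DNA is copied by the MCM helicase, PCNA and polymerases, with nucleotides made by enzymes such as thymidylate synthase (TYMS) and ribonucleotide reductase (RRM1 and RRM2), and new histones are loaded onto it. In G2 and mitosis, cyclin B with CDK1, the Aurora and Polo kinases, the kinesins of the spindle and the anaphase-promoting complex carry the cell through division, and MKI67 and TOP2A mark these phases.

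The proliferating cells numbered 74, 127 and 294 in the libraries of control replicates 1, 2 and 3, and those of asthma replicates 8, 10 and 11 held 77, 53 and 24. Their summed UMIs were 462543, 879471 and 1763417 in the control libraries and 515731, 293819 and 110975 in the asthma libraries, so that control replicate 3 was the deepest and asthma replicate 11 the shallowest. Whole libraries held between 29014556 and 41489879 UMIs. The median proliferating cell had 3325 UMIs in asthma replicate 11 and between 4830 and 5607.5 in the other 5 libraries, against 3242 to 4370.5 in the other T and NK cells. Deeper cells show more genes, and a rule that needs detected genes favours them, so shares were also taken after each cell was thinned to 2000 UMIs, which left out 61 proliferating and 913 other cells. Over all pairs of libraries, 137 cell barcodes were shared, of which 82 were quality-controlled cells on both sides, 1 was a proliferating cell in 1 library and 0 were proliferating in both. Intervals below are 95% Clopper-Pearson intervals and cover counting error only, and with 1 library per monkey the tests measure the spread between monkeys together with that between libraries.

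The label was checked with STMN1, the microtubule-destabilizing protein stathmin, which was given as a marker but took no part in the rule. In control replicate 3, STMN1 stood at 116 CPM (counts per 1000000 of the summed UMIs) in T and NK cells with 0 of the 6 cell cycle genes, at 182 CPM with 1, at 721 CPM with 2, at 2100 CPM with 3 and at 4361 CPM with all 6. In asthma replicate 8 the same steps were 88.5, 130, 381, 519 and 3206 CPM. Cells with exactly 2 genes thus lay between the bulk of T and NK cells and the cells with many cell cycle genes. Of the 649 cells, 195 had exactly 2 of the 6 genes, 361 had at least 4 and 143 had all 6. Just outside the rule, 145 to 404 T and NK cells per library had 1 of the 6 genes, and their STMN1 stood between 114 and 207 CPM, against 230 to 721 CPM for T and NK cells with 2.

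Markers of lineage were read with the genes of the gate left out, since the choice of cells fixes CD3D, CD3E, CD3G, TRAC, NKG7, KLRD1 and CD7 as well as the absence of C1QA, MS4A1 and CSF3R. The 4 measured T cell markers outside the gate, led by the adhesion receptors CD2 or CD6, summed to between 151 and 337 CPM in proliferating and between 233 and 434 CPM in other T and NK cells. The 6 NK markers outside the gate, led by the granule protein GNLY, summed to between 1189 and 5530 CPM in proliferating and between 3135 and 6221 CPM in other cells, with asthma replicate 8 the lowest of both. B cell markers summed to at most 40.7 CPM, granulocyte markers to at most 27.2 CPM, mast cell markers to at most 15.3 CPM and erythroid markers to at most 5.69 CPM. The fibroblast and smooth muscle list stood apart in 1 library, at 1377 CPM in asthma replicate 8 against 27.2 to 230 CPM in the other 5, with COL1A1 (473 CPM) its most abundant gene. The epithelial list ran from 60.3 to 577 CPM, led in asthma replicate 11 by SFTPC, which encodes a surfactant protein (442 CPM). Counting cell by cell, 42 of the 649 cells had at least 3 markers of 1 other cell type, namely 9, 4 and 13 in the control libraries and 10, 4 and 2 in the asthma libraries. Monocyte markers were the most frequent, in 7, 3 and 7 cells of the control and 4, 3 and 2 of the asthma libraries. Macrophage markers followed, in 4, 0 and 2 and in 5, 1 and 0 cells, and a cell can count for both. The monocyte list was reached by 2.36 to 9.46% of proliferating and 2.32 to 7.32% of other T and NK cells.

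The first question was how large a part of the T and NK cells was in cycle in each group. Proliferating cells made up 4.12% (74 of 1797, interval 3.25 to 5.14%), 7.42% (127 of 1711, 6.23 to 8.77%) and 15.7% (294 of 1872, 14.1 to 17.4%) of T and NK cells in control replicates 1, 2 and 3. In asthma replicates 8, 10 and 11 they made up 3.98% (77 of 1937, 3.15 to 4.94%), 2.83% (53 of 1872, 2.13 to 3.69%) and 2.18% (24 of 1102, 1.40 to 3.22%). Every asthma library was below every control library, but control replicate 1 and asthma replicate 8 differed by less than their counting error. The means were 9.08% ± 5.97 (SD, n = 3) in the control group and 2.99% ± 0.910 (SD, n = 3) in the asthma group, a difference of -6.09 percentage points with p = 0.1 in a two-sided exact permutation test, the smallest p that 3 against 3 libraries can give.

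**Figure D1:**
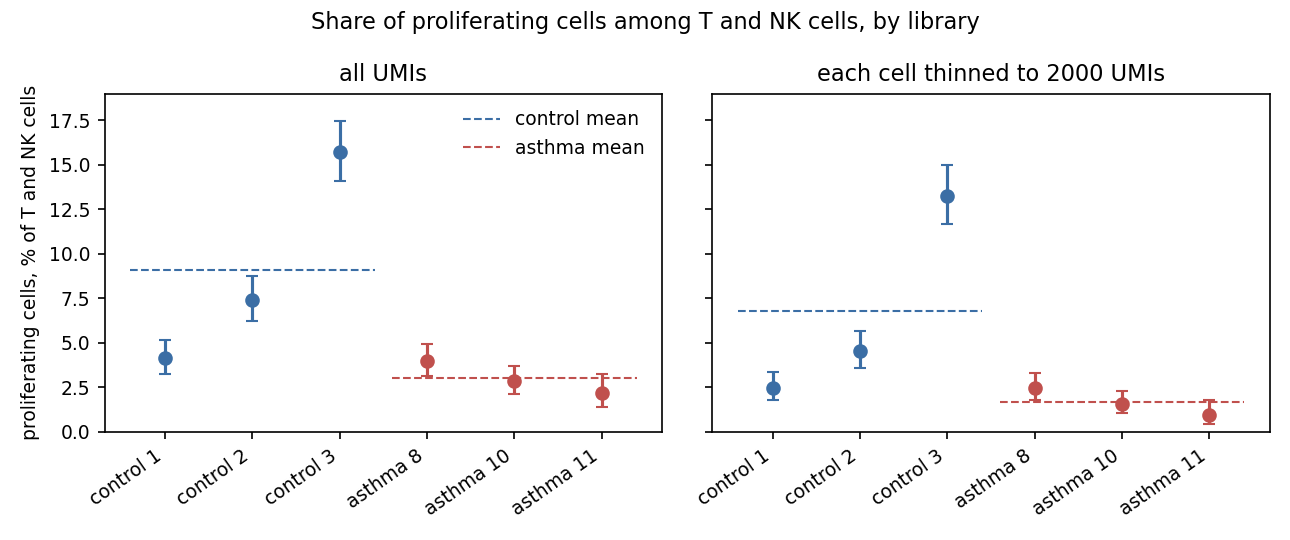
Proliferating cells as a percentage of T and NK cells (y axis) in each of the 6 libraries (x axis), with all UMIs on the left and each cell thinned to 2000 UMIs on the right. Bars are 95% Clopper-Pearson intervals and dashed lines are group means; control replicate 3 (15.7% and 13.3%) stands above the other 5 libraries in both panels.

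Much of the difference lay in 1 monkey. Without control replicate 3 the difference was -2.78 percentage points. After thinning, the shares were 2.46%, 4.53% and 13.3% in the control and 2.46%, 1.57% and 0.932% in the asthma libraries, with means of 6.75% ± 5.73 and 1.65% ± 0.767 (SD, n = 3 each) and an exact permutation p = 0.1, and control replicate 1 and asthma replicate 8 differed by far less than their counting error. Where at least 3 of the 6 genes were required, the groups overlapped, and the difference of -5.09 points had an exact permutation p = 0.2. They overlapped too with all quality-controlled cells as the denominator, where the difference was -3.01 points with an exact permutation p = 0.2. T and NK cells with at least 4 of the 6 genes made up 1.95%, 3.51% and 10.95% in the control and 1.81%, 1.07% and 0.544% in the asthma libraries, and the groups did not overlap (5.47% ± 4.81 against 1.14% ± 0.634, SD, n = 3 each, exact permutation p = 0.1). The cells were not thinned for this count, so it also depends on their depth.

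The cells also differed among libraries in how many cell cycle genes they carried. Cells with exactly 2 of the 6 genes made up 41.9%, 37.0% and 16.7% of the proliferating cells in the control libraries and 33.8%, 52.8% and 58.3% in the asthma libraries, with overlap (31.9% ± 13.4 against 48.3% ± 12.9, SD, n = 3 each). The rule used these genes and the cells were not thinned here, with medians of 3325 UMIs in asthma replicate 11 and 5258 UMIs in control replicate 3, so the shares are a description without a test. Cells with all 6 genes made up 30.6% in control replicate 3 and between 13.2% and 18.9% in the other libraries except asthma replicate 11, where 0 of 24 cells had all 6, which allows a share of up to 12.5%.

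The same cell cycle rule found few cells in other compartments of these lungs at equal depth. After thinning to 2000 UMIs, it took between 0 and 1.79% of the macrophages, B cells, granulocytes, fibroblasts and endothelial cells of a library, as gated by their markers, against 0.932 to 13.3% of the T and NK cells. Where the count was 0, the compartment held 26 to 402 cells, which allows shares of up to 11.5% and 0.746%. In the 3 control libraries the T and NK share was 2.46%, 4.53% and 13.3%, against at most 1.09% in these compartments. The nearest values were the B cells of asthma replicate 8, at 2 of 112 cells (1.79%), and the endothelial cells of asthma replicate 10, at 3 of 228 cells (1.32%). The T and NK cells of these 2 libraries stood at 2.46% and 1.57%. Without thinning the gap was smaller in some libraries. B cells then stood at 3.01% against 4.12% of T and NK cells in control replicate 1, with medians of 4121 and 3389 UMIs. In asthma replicate 8 they stood at 3.01% against 3.98%, and in control replicate 3 at 2.53% against 15.7%. The T and NK share stayed the highest in each library.

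Next, transcript levels of proliferating cells were set against those of the other T and NK cells of the same library. Because the cells were selected on cell cycle genes, these levels are a description and carry no test. Differences are mean log2(CPM + 10) of proliferating minus other cells over 6 libraries, and the sum with 10 CPM understates the change of low genes. Of 2639 genes with a symbol and at least 50 CPM on either side, rule genes left out, 687 (26.0%) were higher in the proliferating cells of 6 of 6 libraries and 296 (11.2%) were lower in 6 of 6, with a median difference of 0.09. The genes of the rule themselves differed by between 3.14 (CENPF, a kinetochore protein) and 5.41 (MKI67), as the choice of cells fixes. MKI67 was at 866 ± 239 CPM in proliferating and 10.4 ± 4.24 CPM in other T and NK cells (SD, n = 6).

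Genes of chromosome packaging and of the spindle led the list of genes outside the rule. ASPM, a protein of the spindle poles, was at 214, 246 and 399 CPM in the control and 316, 259 and 279 CPM in the asthma libraries, against at most 6.16 CPM in the other T and NK cells (difference 4.41 ± 0.24, SD, n = 6). The lowest level of ASPM in proliferating cells was far above the highest in other cells, and the control and asthma libraries overlapped. STMN1 was at 2406, 2100 and 3281 CPM in the control and 1871, 1940 and 1081 CPM in the asthma libraries, against 94.6 to 170 CPM in other cells (difference 3.93 ± 0.45, SD, n = 6). For STMN1 every asthma library lay below every control library. HMGB2, a chromatin protein that bends DNA, was at 1573 ± 393 CPM against 172 ± 32.5 CPM (SD, n = 6), and the linker histone H1-5 differed by 4.07. Of the 19 measured genes of the list for histones and chromatin assembly, in which STMN1 was counted, 18 were higher in 6 of 6 libraries, with a median difference of 2.16.

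In mitosis the kinetochore, the spindle motors and the kinases were represented together. Of 36 measured genes for the spindle, kinetochore and cytokinesis that the rule did not use, 34 were higher in 6 of 6 libraries (median 2.54), and 0 were lower in 6 of 6. They included the kinesins KIF11 (3.49), KIF15 (3.09) and KIFC1 (3.01) and the kinetochore proteins SPC25 (3.45), NUF2 (3.17), CENPM (3.36) and CENPW (3.03). Also among them were DLGAP5 (3.82), PRC1 (3.07) and TPX2 (2.97), which organize spindle microtubules. KNL1, a kinetochore protein outside the lists, differed by 3.00. Of 12 mitotic kinase and checkpoint genes, 11 were higher in 6 of 6 (median 1.85), with AURKB, the kinase of the chromosomal passenger complex, at 113 CPM on average against 1.17 CPM. CDC20, which activates the anaphase-promoting complex, differed by 3.41, SGO2, which guards centromeric cohesion, by 3.13 and CDCA5, a cohesin regulator, by 2.84. Of 9 genes for the anaphase-promoting complex and its targets outside the rule, 7 were higher in 6 of 6 (median 1.83).

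**Figure D2:**
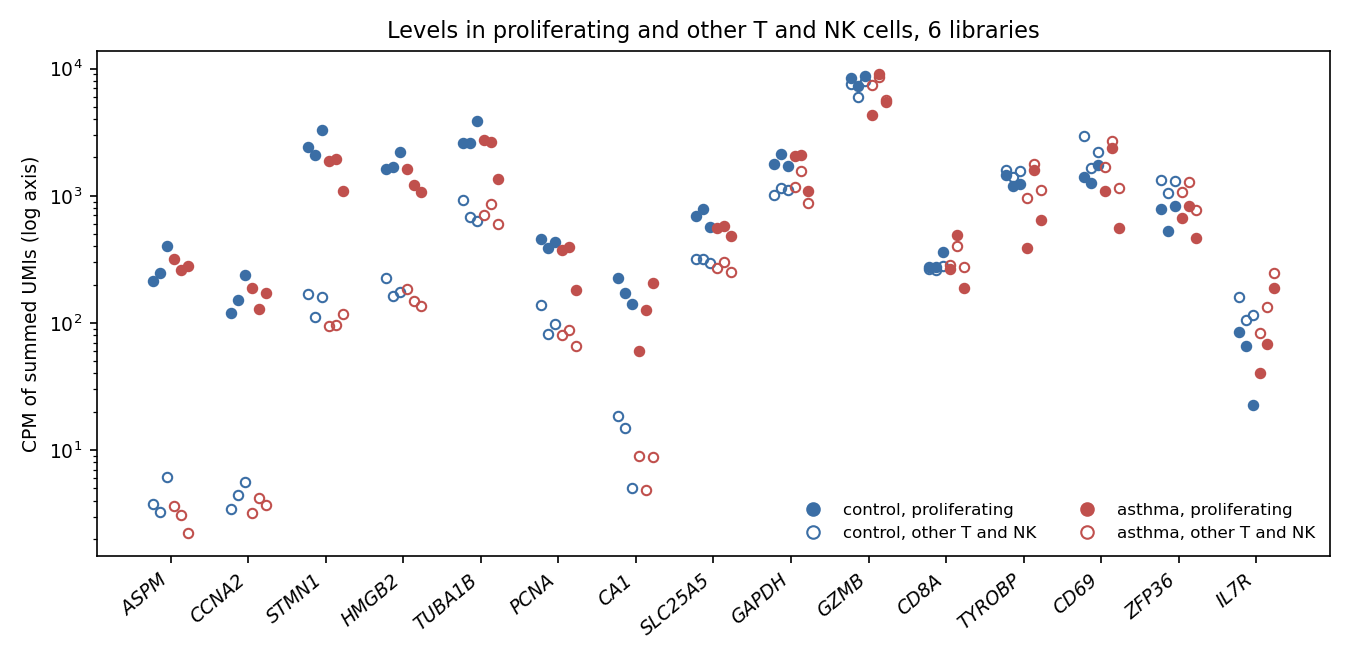
Level in CPM of summed UMIs (y axis, log axis) of 15 genes (x axis) in the proliferating (filled) and the other (open) T and NK cells of the 3 control (blue) and 3 asthma (red) libraries. Filled points lie far above open points for ASPM, STMN1, HMGB2 and CA1, mix with them for GZMB and CD8A, and lie below the open point of the same library for CD69 and ZFP36; a value of 0 is not drawn.

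Replication and cyclin genes were higher as well. Of 28 genes for replication licensing and the fork, 23 were higher in 6 of 6 libraries (median 1.53), among them PCNA, the sliding clamp of DNA polymerase, with 369 ± 97.4 CPM against 92.1 ± 24.5 CPM (SD, n = 6). The helicase subunit MCM7 was at 172 CPM on average against 23.3 CPM, and CLSPN, a checkpoint mediator at the fork, at 82.8 CPM against 3.15 CPM. Of 7 measured nucleotide supply genes outside the rule, only 2 were higher in 6 of 6 (median 0.58), near the 26.0% over all genes of at least 50 CPM. Among the 2 was RRM1, the large subunit of ribonucleotide reductase (150 CPM on average against 36.6 CPM). Of 16 cyclin, CDK and CDC25 genes, 12 were higher in 6 of 6 (median 1.24). Cyclin A2 (CCNA2) differed by 3.61, cyclin B2 (CCNB2) by 3.13 and CDK1 by 3.05, whereas CCND3, a cyclin of G1, differed by 0.13 and was higher in 5 of 6. Of 12 E2F and MYB factors, 7 were higher in 6 of 6 (median 1.03), and the repressive E2F4 differed by 0.17. Of 9 CDK inhibitor and RB family genes, 5 were higher in 6 of 6 (median 0.44), with CDKN3, a phosphatase that acts on CDKs, at 2.84.

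Metabolic genes were modestly higher. Of 11 measured genes of oxidative phosphorylation, 8 were higher in 6 of 6 libraries (median 0.31), led by SLC25A5, the ADP/ATP carrier of the inner mitochondrial membrane, at 609 CPM on average against 293 CPM. Of 10 glycolysis genes, 7 were higher in 6 of 6 (median 0.51), and the enolase ENO1 was at 719 CPM on average against 353 CPM. GAPDH was at 1766, 2121 and 1704 CPM in the control and 2071, 2076 and 1081 CPM in the asthma libraries, against 882 to 1555 CPM in other T and NK cells. These shifts exceeded the median of 0.09 over all genes but were smaller than those of the mitotic lists.

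Early response genes stood lower in the proliferating cells. Of 20 measured immediate-early genes, transcription factors and regulators that cells switch on within minutes of stimulation, 13 were lower in 6 of 6 libraries and 0 were higher in 6 of 6, with a median of -0.53. ZFP36, which speeds the decay of cytokine mRNAs, was at 787, 526 and 835 CPM in the control and 667, 837 and 469 CPM in the asthma libraries, against 1334, 1052 and 1311 CPM and 1074, 1280 and 779 CPM in the other T and NK cells. ZFP36 was lower in the proliferating cells of every library. FOS differed by -0.77 and CD69, an early activation antigen, by -0.60. Of 15 activation and costimulation genes, 6 were lower and 1 was higher in 6 of 6 (median -0.37), with CD44, an adhesion receptor, at -0.37 and LTB, lymphotoxin beta, at -0.90. Of 9 heat shock genes 2 were lower and 1 was higher in 6 of 6 (median -0.07), and of 20 interferon-stimulated genes 5 were lower and 1 was higher (median -0.18). The shares over all genes of at least 50 CPM were 11.2% lower and 26.0% higher in 6 of 6.

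Among effector and receptor genes the direction depended on the gene and the library. Granzyme B (GZMB), a serine protease of cytotoxic granules, was at 8477, 7248 and 8760 CPM in the control and 4305, 9118 and 5497 CPM in the asthma libraries, against 5694 to 8578 CPM in other cells. The proliferating cells were above the other cells in 4 libraries and below them in 2. Of the 8 cytotoxic granule genes 2 were lower and 0 were higher in 6 of 6 libraries (median -0.34), and granzyme A (GZMA) was higher in 5 of 6 (0.57). Of 9 NK and gamma-delta genes 3 were lower in 6 of 6 (median -0.29), among them the signalling adaptors TYROBP (1086 ± 474 against 1398 ± 309 CPM, SD, n = 6) and FCER1G (360 ± 163 against 567 ± 152 CPM, SD, n = 6). Of 19 genes for IL-2 family receptors and their signalling 4 were lower and 0 were higher in 6 of 6 (median -0.11), and IL7R, the receptor of a survival cytokine, was at 78.5 CPM on average against 141 CPM. Of the 11 inhibitory receptor genes 1 was lower in 6 of 6 (median -0.18), of the 10 tissue residency genes 3 (median -0.21), of the 9 naive and circulating memory genes 1 (median -0.06) and of the 8 regulatory T cell genes 1 (median 0.21). Of the 18 T helper subset genes 1 was lower and 1 was higher in 6 of 6 (median -0.01), and IFNG, which encodes interferon gamma, was at 393 ± 143 against 520 ± 130 CPM (SD, n = 6). Over all genes of at least 50 CPM, 11.2% were lower and 26.0% were higher in 6 of 6. These lists also hold genes of lower level. Counts of 1 gene lie near or below that share and are not read as a result about a list.

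**Figure D3:**
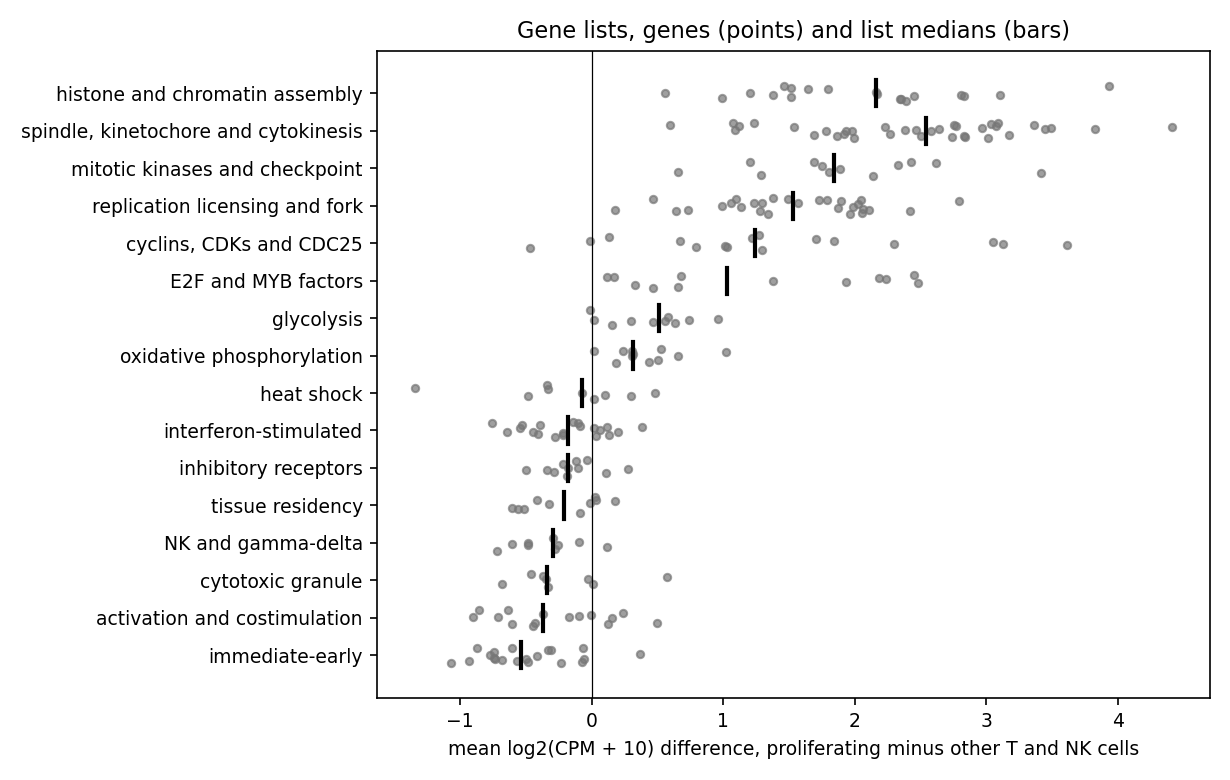
Mean log2(CPM + 10) difference of proliferating minus other T and NK cells over 6 libraries (x axis) for the genes of 16 lists (y axis), with genes of the selection rule left out. Points are genes and bars list medians, which run from 2.54 for the spindle list to -0.53 for the immediate-early list.

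The genes with the largest negative differences included many markers of other cell types. The 15 largest negative differences with at least 50 CPM in the other T and NK cells were led by SFTPC (-3.88), a surfactant gene of alveolar type 2 cells, IGKC (-3.73), an antibody light chain, CFD (-2.52), complement factor D, ITLN1 (-2.43), an intelectin of mesothelium, and S100A9 (-2.09), a granulocyte protein. SFTPC was at 281, 54.6 and 10.2 CPM in the control and 65.9, 64.7 and 442 CPM in the asthma libraries, against 2062, 1430 and 827 CPM and 480, 2084 and 3917 CPM in the other T and NK cells. The remaining 10 were MGP, SCGB3A2, ADIRF, KRT19, CPE, FABP4, PTGDS, S100A8, SPARC and C3, at -1.82 to -1.43. The epithelial list summed to 60.3 to 577 CPM in the proliferating and 653 to 4213 CPM in the other T and NK cells. Cells with at least 3 markers of 1 other cell type made up 3.15 to 12.99% of the proliferating and 4.64 to 10.3% of the other cells of a library, and the part of such cells or of free RNA in these differences was not tested.

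One of the 25 genes with the largest positive differences was in none of the cell cycle lists and is known from another cell type. CA1, carbonic anhydrase 1, which is best known as an abundant enzyme of red blood cells, was at 225, 172 and 140 CPM in the control and 60.1, 126 and 207 CPM in the asthma libraries, against 4.81 to 18.6 CPM in the other T and NK cells (difference 2.97 ± 0.58, SD, n = 6). At least 1 CA1 UMI was found in 48.6%, 35.4% and 32.0% of the proliferating cells of the control libraries and in 14.3%, 18.9% and 25% of those of the asthma libraries, 202 of 649 cells in total. In the other T and NK cells the share was 1.32 to 5.49%, and in quality-controlled cells outside the T and NK gate it was 0.283 to 1.06%, although the latter had median depths of 4724 to 7664 UMIs. After thinning to 2000 UMIs the share was 13.6 to 35.7% in proliferating and 0.892 to 3.74% in other T and NK cells. The most CA1 UMIs in any 1 cell of a library were 7 to 28. Erythroid markers were near 0, with 6 of the 649 cells holding any of them.

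Lineage was read from CD4 and CD8A, which the rule did not use, in cells thinned to 2000 UMIs. The classes with CD3 alone and without CD3 also rest on CD3 genes, which the lymphocyte gate counts. Their shares are partly fixed by the choice of cells. CD8 cells (CD8A and no CD4) made up 43.8% ± 5.22 of proliferating cells in control libraries and 39.2% ± 15.8 in asthma libraries (SD, n = 3 each, exact permutation p = 0.7). CD4 cells (CD4 and no CD8A) made up 1.43%, 6.09% and 1.12% in the control and 12.1%, 6.25% and 10.0% in the asthma libraries. Every asthma library was above every control library, with control replicate 2 and asthma replicate 10 nearly equal, on counts of 1, 7 and 3 against 8, 3 and 2 cells (2.88% ± 2.78 against 9.46% ± 2.97, SD, n = 3 each, exact permutation p = 0.1, adjusted p = 0.5 over 5 classes). Cells with CD3 transcripts but neither CD4 nor CD8A made up 37.7% and 39.9%, given without a test. Cells with no transcript of CD4, CD8A or CD3, called cells without CD3 here, made up 15.2% and 9.76%, given without a test. CD3 was not asked of the CD8 and CD4 classes, so cells there can lack it. The differences moved with single libraries: that of CD8 cells ran from -13.1 percentage points without asthma replicate 10 to 2.5 without asthma replicate 11, that of cells with CD3 alone from -1.43 without control replicate 3 to 7.53 without asthma replicate 10, and that of cells without CD3 from -10.6 without asthma replicate 11 to -2.08 without asthma replicate 8. Without thinning, where more genes are seen per cell, CD8 cells made up 67.6% ± 7.97 and 54.2% ± 22.7 and CD4 cells 4.66% ± 1.39 and 13.8% ± 6.68 (SD, n = 3 each).

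Set against the other T and NK cells of the same library, no class read from CD4 and CD8A alone differed past the adjusted threshold. CD8 cells were 41.5% of proliferating and 39.8% of other cells, a difference of 1.69 ± 8.30 percentage points (SD, n = 6, exact sign-flip permutation p = 0.625), and of 7.01 ± 12.9 points without thinning (SD, n = 6, exact sign-flip permutation p = 0.188). Cells with CD3 transcripts but neither coreceptor were lower among proliferating cells in 6 of 6 libraries, by -6.21 ± 3.84 points (SD, n = 6). Without thinning the difference was -10.04 ± 7.07 points, with 1 of 6 libraries higher (SD, n = 6). The gate counts CD3 genes on both sides, so the choice of cells partly fixes these shares, and they are given without a test. CD4 cells differed by 0.781 ± 3.98 points (SD, n = 6, exact sign-flip permutation p = 0.781). Cells with none of CD4, CD8A and CD3, a class that rests on the same CD3 genes, differed by 3.32 ± 5.59 points (SD, n = 6), given without a test. No gene is listed under the symbol CD8B, so that the CD8 class rests on CD8A.

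**Figure D4:**
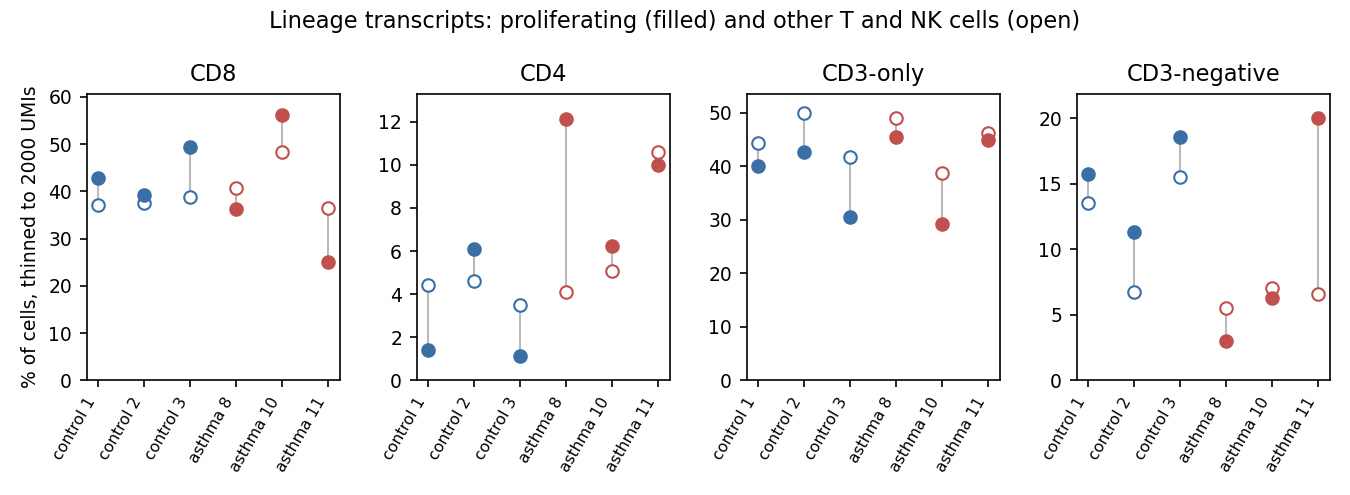
Percentage of cells (y axis) in 4 lineage classes, thinned to 2000 UMIs, for the proliferating (filled) and the other (open) T and NK cells of each library (x axis), control in blue and asthma in red. The CD3-negative class also lacks CD4 and CD8A. The filled points of the CD3-only class lie below the open points in 6 of 6 libraries, and in the CD4 class the 3 asthma libraries (6.25 to 12.1%) lie above the 3 control libraries (1.12 to 6.09%).

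The balance of S phase to G2M transcripts overlapped between the groups. The log2 ratio of summed UMIs of the S phase list to the G2M list, without the 6 genes of the rule, was -1.31, -1.33 and -1.84 for the control replicates 1, 2 and 3, and for the asthma replicates 8, 10 and 11 it was -1.43, -1.45 and -1.66. Control replicate 3 was the lowest. In the other T and NK cells the same ratio was -1.30, -1.22 and -1.24 in control and -1.31, -1.40 and -1.17 in asthma libraries, near that of the proliferating cells in several libraries, so it is given as a ratio and not as a phase. The means were -1.49 ± 0.30 and -1.51 ± 0.13 (SD, n = 3 each), and the exact permutation p was 1. The difference of -0.02 became -0.19, with no overlap, without control replicate 3, and 0.07 without control replicate 1.

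Within the proliferating cells, asthma was then compared with control gene by gene. With edgeR's quasi-likelihood test on UMIs summed per library, 0 of 5496 genes tested (0.0%) passed a Benjamini-Hochberg adjusted p of 0.05. DESeq2 called 1 gene, AGER, of which 38 of 61 UMIs came from 1 cell. With no filter on low counts, edgeR called 52 genes higher and 27 lower. Without asthma replicate 8 it called 2 higher and 0 lower, and without asthma replicate 10, 4 higher and 0 lower. At an unadjusted p under 0.05, 177 genes (3.22%) were higher and 145 (2.64%) were lower in asthma. In 350 genes (6.37%) every asthma library lay above every control library, and in 291 (5.29%) every asthma library lay below. In the other T and NK cells, tested in the same way, 1 of 11148 genes (0.00897%) passed, the prostaglandin-degrading enzyme HPGD, at 1.14, 0.882 and 0.880 CPM in the control and 31.4, 34.6 and 25.4 CPM in the asthma libraries (edgeR adjusted p = 0.00108). In these other cells DESeq2 called 21 genes higher and 16 lower. HPGD had too few UMIs in the proliferating cells to be tested there. The study names HPGD as specific to its endothelial clusters EC1 and EC3. Endothelial cells, as gated by their markers, numbered 393, 260 and 255 in the control and 597, 580 and 735 in the asthma libraries. The part of endothelial RNA in the HPGD difference was not tested.

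The genes of smallest p in the proliferating cells are given as values that did not pass. TIMP1, an inhibitor of matrix metalloproteinases, was at 246, 164 and 329 CPM in the control and 105, 140 and 108 CPM in the asthma libraries, a log2 fold change of -1.09 ± 0.26 (SE, edgeR adjusted p = 0.638). The groups did not overlap in TIMP1. TYMS, 1 of the 6 rule genes, was at 335, 308 and 456 CPM in the control and 211, 221 and 180 CPM in the asthma libraries. Its level is partly fixed by the choice of cells and is given without a test. RNASEH2A, a subunit of the nuclease that removes RNA from DNA, had a log2 fold change of -0.92, the NK cell receptor KLRF1 of -1.81, the CDK inhibitor CDKN2B of -0.87, the proteasome subunit PSMD4 of -0.78, the T cell kinase TXK of -1.24, the importin KPNA2 of -0.91, PLAC8 of -1.19 and the mitochondrial import protein TOMM5 of -0.88, with edgeR adjusted p from 0.638 to 0.728. KLRF1 reached the level that the filter on low counts asks for (20.4 CPM in 3 libraries) in the control libraries alone, so it was tested only because it was high there. TXK and PLAC8 overlapped between the groups and the other tested genes of this direction did not.

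The 10 genes of smallest p in the other direction did not pass either. CD4, the coreceptor of helper T cells, was at 15.1, 30.7 and 11.9 CPM in the control and 58.2, 44.2 and 99.1 CPM in the asthma libraries (1.65 ± 0.43, SE, edgeR adjusted p = 0.638). In the other T and NK cells CD4 was at 33.1, 39.6 and 26.0 CPM and 31.4, 37.1 and 67.8 CPM, with overlap, and the difference between the asthma effects was 1.37 ± 0.34 (SE, edgeR adjusted p = 0.125). CD3E was at 141, 250 and 216 CPM against 465, 391 and 270 CPM, but it belongs to the lymphocyte gate, so that its level is partly fixed by the choice of cells and is given without a test. CD44 was at 192, 242 and 212 CPM against 334, 436 and 387 CPM (0.81 ± 0.22, SE, edgeR adjusted p = 0.638), with no overlap. The remaining 7 genes were VEGFA (1.93), a growth factor of vessels, LST1 (1.69), AKAP9 (0.89), a scaffold at the Golgi and centrosome, LIMA1 (1.53), an actin-binding protein, the DNA repair factor XPC (1.04), CCDC50 (1.76) and the calcium channel ITPR3 (0.995), with edgeR adjusted p = 0.638. VEGFA and LIMA1 reached the filter's level in the asthma libraries alone. CD4 and CCDC50 each reached it in 3 asthma libraries and 1 control library, so the asthma libraries were enough for them to be tested. LST1 overlapped between the groups and the other 6 did not. Of the 23 VEGFA UMIs of asthma replicate 8, 19 came from 1 cell, and the overlap without that cell was not tested.

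Lists of cell cycle genes lay slightly below 0 in this comparison, and did so in the other T and NK cells too. Against a median log2 fold change of 0.0008 over all 5496 genes, the replication list had a median of -0.32 (20 of 25 genes below 0), the spindle list of -0.28, the mitotic kinase list of -0.31 (10 of 11), the S phase list of -0.29 and the G2M list of -0.26. The histone list had a median of -0.27 (15 of 18), the E2F list of -0.27 (9 of 9), the cyclin list of -0.12 (9 of 14), the nucleotide list of -0.18, the CDK inhibitor list of -0.15 (7 of 9) and the anaphase-promoting complex list of -0.44. Some of these lists hold genes of the rule. Without those genes, the medians were -0.29 for the spindle (31 of 34 below 0), -0.26 for S phase (27 of 35), -0.27 for G2M (39 of 45), -0.14 for nucleotide supply (4 of 5) and -0.40 for the anaphase-promoting complex (7 of 8). In the other T and NK cells the medians were -0.39 for replication, -0.29 for the spindle, -0.27 for S phase, -0.19 for G2M, -0.32 for the cyclins, -0.18 for the histone list and -0.38 for the anaphase-promoting complex with the rule's genes kept. They lay nearer 0 for the mitotic kinase list (-0.16), the CDK inhibitor list (-0.13), the nucleotide list (-0.12) and the E2F list (-0.09). None of the lists' genes passed the test in the proliferating cells. At an unadjusted p under 0.05, 0 were higher, and 5 of the 18 genes of the histone list (STMN1, H2AZ1, H2AZ2, HMGB2 and UHRF1), 5 of 45 G2M, 3 of 34 spindle, 3 of 14 cyclin, 2 of 35 S phase, 2 of 8 anaphase-promoting complex, 1 of 25 replication, 1 of 9 E2F, 1 of 9 CDK inhibitor, 0 of 11 mitotic kinase and 0 of 5 nucleotide genes were lower, beside 2.64% over all genes. STMN1 had a log2 fold change of -0.67 ± 0.25 (SE, edgeR adjusted p = 0.815). Where at least 3 of the 6 genes were required, these medians moved to -0.11 for replication, -0.01 for S phase, 0.02 for G2M, 0.0045 for the spindle and 0.0004 for the mitotic kinases. The cells with exactly 2 genes, which this requirement leaves out, ran from 16.7% of the cells in control replicate 3 to 58.3% in asthma replicate 11.

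**Figure D5:**
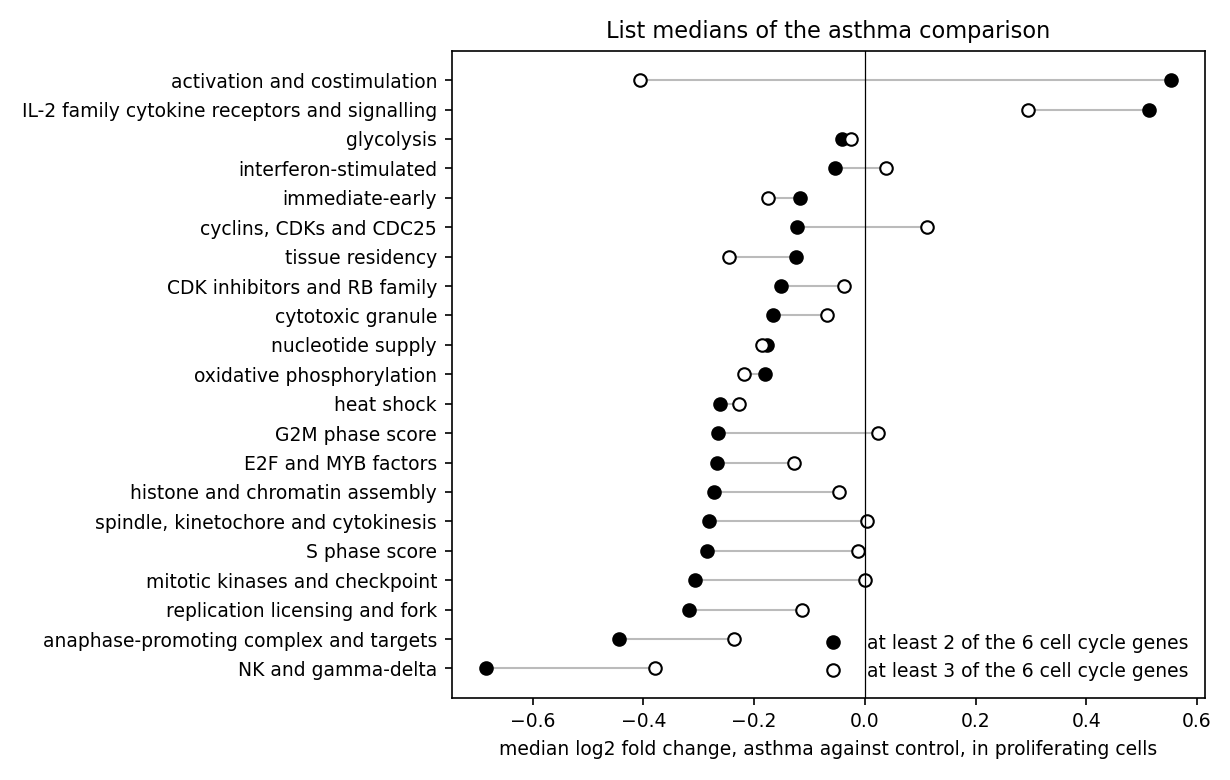
Median log2 fold change, asthma against control, over the tested genes of each list in the proliferating cells (x axis; lists on the y axis), with at least 2 (filled) or at least 3 (open) of the 6 cell cycle genes required. The G2M median moves from -0.26, with the rule's genes kept, to 0.02. That of activation and costimulation moves from 0.55, or 0.29 without ICOS, to -0.41. The 2 requirements left 5496 and 4682 genes to test, so a move can hold a change of genes as well as of cells.

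The medians of immune, metabolic and stress lists ran from -0.68 to 0.55, and none of their genes passed the test. The 6 tested NK and gamma-delta genes had a median of -0.68, which was -0.57 without KLRF1, the gene that passed the filter through the control libraries alone. Of the remaining 5 genes, 1 (FCER1G) was lower at an unadjusted p under 0.05. FCER1G was at 638, 355 and 411 CPM in the control and 142, 303 and 315 CPM in the asthma libraries (-0.94 ± 0.31, SE, edgeR adjusted p = 0.731), and KLRF1 was at 36.8, 37.5 and 27.8 CPM against 11.6, 10.2 and 0 CPM, where the count of 0 allows up to 27.0 CPM. The same list had a median of -0.30 in the other T and NK cells. The 12 tested activation and costimulation genes had a median of 0.55, which was 0.29 without ICOS, which reached the filter's level in 0 control libraries. Of the remaining 11 genes, 4 were higher and 1 was lower at an unadjusted p under 0.05, beside 3.22% and 2.64% over all genes. The 4 were CD44, the costimulatory receptor TNFRSF4 (2.35, on 39 UMIs in all libraries), the CD40 ligand CD40LG (1.55) and LTB (1.10). The 1 was CD38 (-0.67), a surface enzyme. TNFRSF4 and CD40LG each reached the filter's level in 3 asthma libraries and 1 control library. The asthma libraries, where they were high, were thus enough for them to be tested. Of the others, TNFSF10 stood at 0.87, CD74 at 0.29, CD28 at 0.03, CD69 at -0.12, CD27 at -0.31 and the transferrin receptor TFRC at -0.55. Where at least 3 of the 6 genes were required, 7 of these genes could be tested and their median was -0.41. The 8 IL-2 family genes had a median of 0.51, which became -0.04 without asthma replicate 11. Medians were 0.40 for 5 inhibitory receptors, -0.17 for 8 cytotoxic granule genes, -0.12 for 7 tissue residency genes, -0.12 for 16 immediate-early genes, -0.26 for 7 heat shock genes, -0.05 for 9 interferon-stimulated genes, -0.18 for 11 genes of oxidative phosphorylation and -0.04 for 8 glycolysis genes. The naive and memory, T helper and regulatory T cell lists had 3 tested genes each, with medians of 0.53, -0.02 and 0.12.

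Whether the asthma effect differed between proliferating and other T and NK cells was tested with an interaction in edgeR, with the library as a block. Of 10251 genes tested, 21 (0.205%) passed at an adjusted p under 0.05, 20 with a more positive and 1 with a more negative log2 fold change in the proliferating cells. Of these, 17 had a symbol, among them SCGB3A1, AGER, COL1A1, COL1A2, RAMP2, IL1B, EGR3 and VEGFA. For 14 of the 21 genes over 50% of all UMIs in proliferating cells came from 1 cell, and for the other 7 the top cell held 26.8% to 48.1%. The median share of the top cell was 62.3%, and for 15 of the 21 genes asthma replicate 8 held the most UMIs. SCGB3A1, an airway secretory protein, had 844 UMIs in the proliferating cells, of which 771 came from 1 cell of asthma replicate 10. COL1A1, a collagen of connective tissue, had 241 of its 305 UMIs in 1 cell of asthma replicate 8. VEGFA had the lowest share in 1 cell, with 19 of 71 UMIs (26.8%), and a difference of 2.12 ± 0.45 (SE, edgeR adjusted p = 0.036). These shares are taken over all libraries. Of the UMIs of asthma replicate 8 alone, 1 cell held 19 of 23 for VEGFA, 85 of 86 for IL1B and 27 of 34 for EGR3. Without the 42 proliferating cells that had at least 3 markers of 1 other cell type, 11 genes passed higher and 1 lower, and 3 of the 21 were among them. Without asthma replicate 8, 6 genes passed higher and 1 lower, and without asthma replicate 10, 60 higher and 17 lower.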

How the data were processed

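The authors dissociated lung tissue, captured cells with a droplet 3′ kit and ran Cell Ranger against the macFas6 genome. The deposited values are raw UMI counts for each gene in each called barcode, without any scaling. The submitters' processing notes name version 2.1.1, and the methods and file headers name others. Of the genes listed, 21095 carry a symbol and 7528 do not. Of 35133 barcodes, 25388 had 501 to 4999 genes and no more than 25% of their UMIs from 13 mitochondrial genes. Doublets were not removed: the caller's own threshold (Scrublet, scanpy 1.11.5) marked under 0.2% of cells of each library and so had not worked, and leaving out the highest scores (0.8% per 1000 barcodes, 30 proliferating cells) was an alternative.

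Counts were summed per library over the proliferating and the other T and NK cells. The edgeR 4.0.16 quasi-likelihood test (R 4.3.3) was run with TMM and filterByExpr, and a gene was called where the p adjusted by Benjamini-Hochberg was under 0.05 and the log2 fold change exceeded 0.25 in size (for the interaction, at the adjusted p alone). The study compared cells, but here libraries are the replicates. Printed CPM use the summed UMIs without TMM factors, which were 0.952 to 1.07. Shares were compared by exact permutation over 20 assignments (scipy 1.17.1), lineage within libraries by sign flips over 64 patterns. The labels name no batch, and precision follows from the UMIs per library given in the text.

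The members and the 25 gene lists were chosen with earlier results of these data known. Named genes were those of the rule and the markers, the 10 of smallest p per direction where fewer than 5 were called, the 25 highest and 15 lowest against other T and NK cells, with the same sign in 6 of 6 libraries and at least 50 CPM, up to 4 of highest CPM per list, and genes in counts of 5 or fewer. Alternatives were thinning, other thresholds and denominators, DESeq2 1.42.0, no filter on low counts and each library left out. Leaving out cells with at least 3 markers of another cell type, leaving out the highest doublet scores in the interaction, and dropping the 6 cell cycle genes from the lists were added after seeing the data. No sequences are printed, since the reference used here holds gene names only.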

Additional observations from a re-analysis of the deposited data

Results flagged for a closer look

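The asthma effect differed between proliferating and other T and NK cells for 21 genes by the edgeR interaction, 20 of them with a more positive log2 fold change in the proliferating cells. Of the genes with a symbol, SCGB3A1 had a log2 difference of 7.25 ± 0.83 (SE), with 771 of 844 UMIs in 1 cell. The difference of RAMP2, an endothelial receptor component, was 5.83 ± 1.04 (SE), with 24 of 27 UMIs in 1 cell. COL1A1 differed by 4.44 ± 0.72 (SE), with 241 of 305 UMIs in 1 cell, and AGER, a gene of alveolar type 1 cells, by 3.78 ± 0.60 (SE), with 38 of 61 UMIs in 1 cell. IL1B, a cytokine of myeloid cells, differed by 3.26 ± 0.55 (SE), with 85 of 189 UMIs in 1 cell, and VEGFA by 2.12 ± 0.45 (SE), with 19 of 71 UMIs in 1 cell. Of the UMIs of asthma replicate 8 alone, 1 cell held 85 of 86 for IL1B and 19 of 23 for VEGFA. The part of such single cells in these differences was tested only by leaving out whole sets of cells, after which 11 genes higher and 1 lower (cells with markers of another cell type left out) or 6 higher and 1 lower (cells with the highest doublet scores left out) passed. Of the 6 genes named here, 0 were among those that passed without the cells with markers of another cell type. AGER then had an edgeR adjusted p of 0.189.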

How the results depend on the processing

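The share of proliferating cells was lower in asthma under each alternative run, by -8.57 to -2.78 percentage points with 1 library left out. In proliferating cells, genes called higher in asthma went from 0 to 1 with DESeq2 (AGER), to 1 with cells carrying markers of another cell type left out (ITLN1), and to 52, with 27 lower, with no filter on low counts. ITLN1 had a log2 fold change of 2.79 with those cells left out. In the main comparison it was -0.47, with overlap between the groups. Leaving out 1 library gave 0 to 4 higher, namely 2 genes without a symbol without asthma replicate 8, and AGER, CYP4B1, EMP2 and COL1A1 without asthma replicate 10. In other T and NK cells DESeq2 called 21 higher and 16 lower in place of 1 and 0, and leaving out 1 library gave 1 to 2 higher and 0 to 2 lower. The interaction called 77 higher and 15 lower with no filter, 11 and 1 without cells carrying markers of another cell type, 6 and 1 without the highest doublet scores, and 6 to 60 higher and 1 to 17 lower with 1 library left out, the 6 without asthma replicate 8 and the 60 without asthma replicate 10. With at least 3 of the 6 cell cycle genes required, list medians in asthma against control turned to 0.00041 for mitotic kinases, 0.0045 for the spindle, 0.024 for G2M and -0.41 for activation, and the IL-2 family ran from -0.045 without asthma replicate 11 to 0.564 without control replicate 1. No median changed sign when the 6 cell cycle genes were dropped from the lists that hold them. The cause was not tested. No paired analysis was possible because the groups share no replicate numbers. Asthma replicate 11 held the fewest cells, 24, and without it 0 genes were called in the proliferating cells in either direction.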
